A study of Mus musculus with 4 samples.

Results

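The interferon regulatory factors (IRFs) are transcription factors that share a DNA-binding domain and recognise GAAA-type elements in interferon-responsive promoters. IRF3, IRF5 and IRF7 act downstream of innate sensors, IRF9 joins STAT factors to carry the type I interferon signal, IRF1 is induced by interferon gamma and is antagonised by IRF2, and IRF4 and IRF8 act in lymphocytes and myeloid cells. In T cells IRF4 is induced in proportion to the strength of T cell receptor signaling and binds DNA together with BATF and AP-1 proteins, and it is needed for follicular helper T (Tfh) cells to form. The 8 genes described here, Irf1, Irf2, Irf3, Irf4, Irf5, Irf7, Irf8 and Irf9, were taken by gene symbol from the 23997 genes of the deposited table.

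Messenger RNA was sequenced in 2 WT (wild type) libraries and in 2 libraries of Apoe-/- mice, which lack apolipoprotein E and are prone to high cholesterol and atherosclerosis. All 4 libraries came from 13-week-old mice labelled C57BL/6, and the cells, labelled as follicular T helper cells, came from lymph nodes together with spleens. The labels give no other treatment, and neither the sort that isolated the cells nor the number of animals behind a library is stated, so the error behind every p-value is the difference between libraries of a genotype, possibly technical only. Values are FPKM, which count sequenced fragments relative to the length of a transcript and to the mapped fragments of the library, so levels of different genes can be compared per length.

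Apoe was measured at 145 and 128 FPKM in WT and at 5.09 and 5.21 FPKM in the libraries labelled Apoe-/-. All 13 Tfh and T cell markers found in the table were expressed, at a summed 3407 to 3408 FPKM in WT and 3380 to 3396 FPKM in Apoe-/- libraries, and 0 of the 13 passed the limma test described next (2 were higher and 1 lower at an unadjusted p under 0.05). The largest differences among them were those of Pdcd1, which encodes PD-1 (271 FPKM in WT and 191 in Apoe-/- libraries, adjusted p = 0.0887), and Cxcr5, the follicle-homing receptor (169 and 213 FPKM, adjusted p = 0.153). All 22 B cell markers were also above a mean of 1 FPKM, so the libraries hold B cell transcripts beside those of T cells. In bulk RNA, fewer cells of a type and less RNA per cell cannot be told apart.

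Genotypes were compared by limma on log2(FPKM + 1) over the 11187 genes with a mean of 1 FPKM or more, and a gene was called where p, adjusted over all of them by the Benjamini-Hochberg method, was under 0.05. In Apoe-/- libraries 106 genes were called higher (0.948% of those tested) and 99 lower (0.885%). These counts moved with single libraries: 59 genes were higher without WT replicate 2, 270 higher and 179 lower without Apoe-/- replicate 1, and 347 higher and 343 lower without Apoe-/- replicate 2. All 8 IRF genes were tested. Below, a pair of FPKM values given without naming libraries is the WT mean followed by the Apoe-/- mean, and values given for a genotype are those of replicates 1 and 2 in turn.

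The start regions of 4 members show which interferon-related letters stand next to genes that differed most between the genotypes (Irf1 and Irf4) and next to genes that differed little (Irf2 and Irf8). The sequences are the 250 bases before the gene start in RefSeq, build GRCm38.p6, all on the plus strand and written 5′ to 3′. Capitals mark matches, on either strand, to the core of an interferon-stimulated response element (GAAA, any 2 bases, GAAA), the core of a gamma-activated site, which responds to interferon gamma (TTC, any 3 bases, GAA), or an NF-kB-like core (GGG, any 5 bases, CC); capitals run together where matches overlap.
Irf1, chr11:53769764-53770013: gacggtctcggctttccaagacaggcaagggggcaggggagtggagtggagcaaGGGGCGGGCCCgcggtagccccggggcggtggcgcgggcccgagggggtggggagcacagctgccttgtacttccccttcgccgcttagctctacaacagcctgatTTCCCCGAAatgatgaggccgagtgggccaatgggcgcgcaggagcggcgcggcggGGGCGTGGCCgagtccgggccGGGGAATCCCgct
Irf4, chr13:30748983-30749232: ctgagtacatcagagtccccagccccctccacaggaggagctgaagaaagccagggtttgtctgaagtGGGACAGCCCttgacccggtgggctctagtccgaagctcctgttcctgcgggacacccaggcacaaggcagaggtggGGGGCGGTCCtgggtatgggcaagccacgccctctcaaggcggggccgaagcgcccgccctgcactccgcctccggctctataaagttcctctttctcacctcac
Irf2, chr8:46739495-46739744: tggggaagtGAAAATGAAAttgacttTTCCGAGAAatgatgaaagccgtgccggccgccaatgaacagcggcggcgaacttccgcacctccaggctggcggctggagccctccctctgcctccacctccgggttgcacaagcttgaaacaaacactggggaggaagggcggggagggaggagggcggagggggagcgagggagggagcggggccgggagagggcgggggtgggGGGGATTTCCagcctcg
Irf8, chr8:120736108-120736357: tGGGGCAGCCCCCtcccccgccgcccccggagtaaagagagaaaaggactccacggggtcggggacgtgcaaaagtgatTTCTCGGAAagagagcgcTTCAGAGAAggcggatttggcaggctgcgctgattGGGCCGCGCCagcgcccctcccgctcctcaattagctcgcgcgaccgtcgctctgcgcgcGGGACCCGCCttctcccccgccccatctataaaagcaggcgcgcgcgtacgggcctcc
Irf1 has a gamma-activated site core, TTCCCCGAA, at -90 to -82 from its start and an NF-kB-like GGGGAATCCC at -13 to -4. Irf4 has 2 NF-kB-like matches, at -182 to -173 and -105 to -96, and neither of the other cores. Irf2 has the response element core GAAAATGAAA at -241 to -232 beside a gamma-activated site core at -224 to -216, and an NF-kB-like GGGGATTTCC at -17 to -8. Irf8 has 2 gamma-activated site cores, TTCTCGGAA at -171 to -163 and TTCAGAGAA at -153 to -145, and 6 NF-kB-like matches in its whole window, where Irf1 has 4. Counting all 11 RefSeq windows of the 8 members, from 250 bases before to 50 after the start, 1 member has the response element core, 3 have the gamma-activated core and 8 have the NF-kB-like core. A member was counted if any of its windows matched, and Irf1, Irf8 and Irf9 each have a window that holds none of the cores. Of 32544 mouse promoter windows of this length, 3.45%, 8.33% and 51% hold them. These shares are per window, so they are not like for like with the counts of members. A match describes letters only and shows no binding.

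All 8 genes were expressed. Irf1 was the most abundant in both genotypes, with a mean at the 95.9th percentile of the tested genes. In WT libraries the order of mean FPKM was Irf1, Irf3, Irf9, Irf2, Irf7, Irf4, Irf8 and Irf5, from 174 down to 16.2 FPKM, and no neighbours in this order overlapped. In Apoe-/- libraries Irf4 came last, at 18.9 FPKM, behind Irf8 at 23.7 and Irf5 at 19.4 FPKM, and Irf1 still came first at 131 FPKM. Irf7 and Irf2 overlapped there, as did Irf5 and Irf4, and the other neighbours did not.

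**Figure D1:**
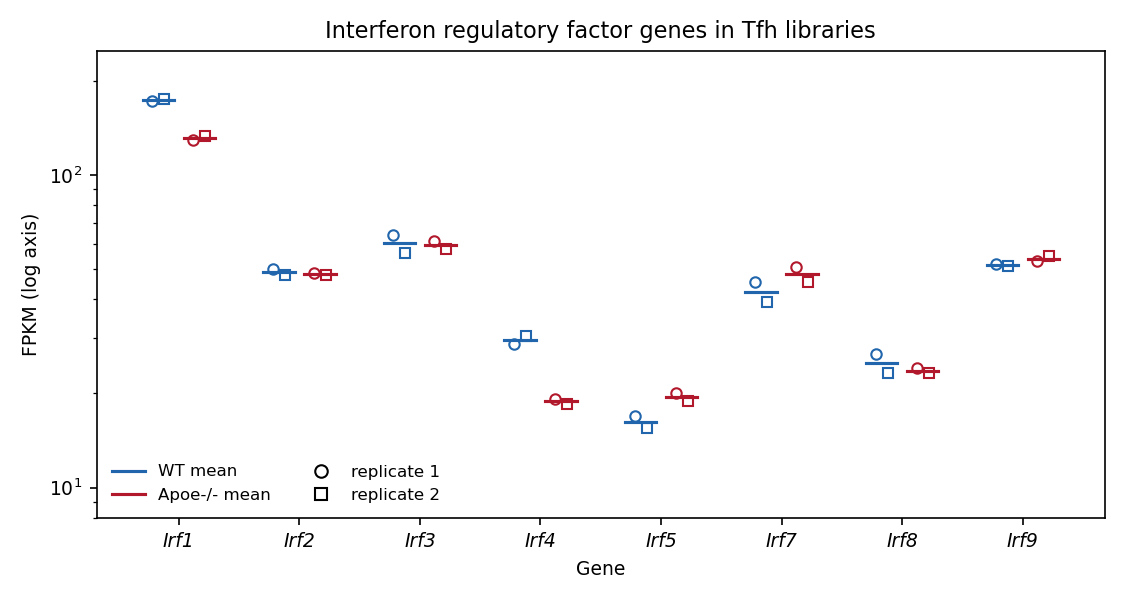
FPKM of the 8 members in each library on a log axis, WT in blue and Apoe-/- in red, with circles for replicate 1, squares for replicate 2 and lines for group means. Irf1 (174 against 131 FPKM) and Irf4 (29.6 against 18.9 FPKM) are the members whose Apoe-/- libraries both lie below both WT libraries.

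None of the 8 members passed the limma test at the adjusted threshold, where 0.948% of all tested genes were called higher and 0.885% lower. At an unadjusted p under 0.05, 0 members were higher and 2 lower, Irf1 and Irf4, against 11.6% of all tested genes higher and 8.27% lower. The genotypes did not overlap for 5 members, 3 higher in Apoe-/- libraries (Irf5, Irf7 and Irf9) and 2 lower (Irf1 and Irf4), against 27.5% of all tested genes higher and 22.9% lower. The median difference of the 8 was -0.020 on the log2(FPKM + 1) scale, beside 0.00029 over all tested genes. The differences of the members thus pointed in both directions. With the replicate number as a block, a pairing for which the labels give no ground, 2 members were called higher (Irf5 and Irf7) where 17.1% of all tested genes were, and 2 lower (Irf1 and Irf4) where 15.9% were.

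Irf4 (chromosome 13, 30749233 to 30766981) was at 28.7 and 30.5 FPKM in WT and at 19.2 and 18.6 FPKM in Apoe-/- libraries. Both Apoe-/- libraries were below both WT libraries, and the mean was 1.57-fold lower. The log2 difference was -0.62 ± 0.10 (SE, n = 2 per group, adjusted p = 0.0594, 95% interval -0.88 to -0.36, not adjusted for the number of genes). Between libraries numbered 1 it was -0.55, and between those numbered 2 it was -0.69. With the libraries rescaled to one FPKM total Irf4 passed (adjusted p = 0.0474, range over 11 alternatives 0.00393 to 0.275), in a setting that called 1.12% of genes lower and 0.912% higher. The difference lay between -0.67 and -0.58 in all 11 alternatives.

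Irf1 (chromosome 11, 53770014 to 53778374) was at 173 and 175 FPKM in WT and at 130 and 133 FPKM in Apoe-/- libraries. The genotypes did not overlap, and the spread within each was small beside the gap: 174 ± 1.49 against 131 ± 2.71 FPKM (SD, n = 2). The mean was 1.32-fold lower, with a log2 difference of -0.40 ± 0.08 (SE, adjusted p = 0.0916, 95% interval -0.61 to -0.19), of -0.42 between libraries numbered 1 and of -0.39 between those numbered 2. Its antagonist Irf2 (chromosome 8, 46739745 to 46847458) was at 50.04 and 47.8 FPKM in WT and at 48.5 and 47.8 FPKM in Apoe-/- libraries. These overlapped, with a log2 difference of -0.023 (adjusted p = 0.918, 95% interval -0.26 to 0.21) whose sign turned with quantile normalization and without WT replicate 1. The ratio of Irf1 to Irf2, which does not depend on how a library is scaled, was 3.46 and 3.66 in WT and 2.67 and 2.79 in Apoe-/- libraries.

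IRF3 and IRF7 are phosphorylated by the kinases TBK1 and IKK-epsilon and then induce interferons; IRF7 is itself an interferon-induced gene. Irf3 (chromosome 7, 44997648 to 45002848) was at 64.4 and 56.5 FPKM in WT and at 61.5 and 57.8 FPKM in Apoe-/- libraries. The genotypes overlapped, and the log2 difference of -0.016 (adjusted p = 0.954, 95% interval -0.29 to 0.26) changed sign with quantile normalization and without WT replicate 1 or Apoe-/- replicate 2. Irf7 (chromosome 7, 141263183 to 141266499) was at 45.6 and 39.2 FPKM in WT and at 50.8 and 45.6 FPKM in Apoe-/- libraries. The highest WT library and the lowest Apoe-/- library were nearly equal, and the log2 difference was 0.18 ± 0.12 (SE, adjusted p = 0.460, 95% interval -0.12 to 0.49). Irf3 and Irf7 share a chromosome with Apoe, 25.3 Mb and 122 Mb from it.

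IRF5 acts below Toll-like receptors in B cells and myeloid cells. Irf5 (chromosome 6, 29526130 to 29541869) was at 16.99 and 15.5 FPKM in WT and at 20.01 and 18.9 FPKM in Apoe-/- libraries. Both Apoe-/- libraries were above both WT libraries, with a log2 difference of 0.25 ± 0.11 (SE, adjusted p = 0.296, 95% interval -0.030 to 0.52). Irf9 (chromosome 14, 55603985 to 55610030) was at 52.1 and 51.2 FPKM in WT and at 53.0 and 55.0 FPKM in Apoe-/- libraries. Its Apoe-/- values were the higher ones by a small margin, with a log2 difference of 0.063 ± 0.093 (SE, adjusted p = 0.751, 95% interval -0.17 to 0.30).

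IRF8 is a factor of B cells, monocytes and dendritic cells, and is also induced in some activated T cells. Irf8 (chromosome 8, 120736358 to 120756694) was at 26.7 and 23.3 FPKM in WT and at 24.1 and 23.3 FPKM in Apoe-/- libraries. The genotypes overlapped, with a log2 difference of -0.072 ± 0.11 (SE, adjusted p = 0.767, 95% interval -0.36 to 0.21), which was 0.021 without WT replicate 1. The ratio of Irf4 to Irf8, its closest relative in the family, was 1.08 and 1.31 in WT and 0.799 and 0.797 in Apoe-/- libraries. Irf4 thus had the higher level per length in WT libraries and Irf8 in Apoe-/- libraries.

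**Figure D2:**
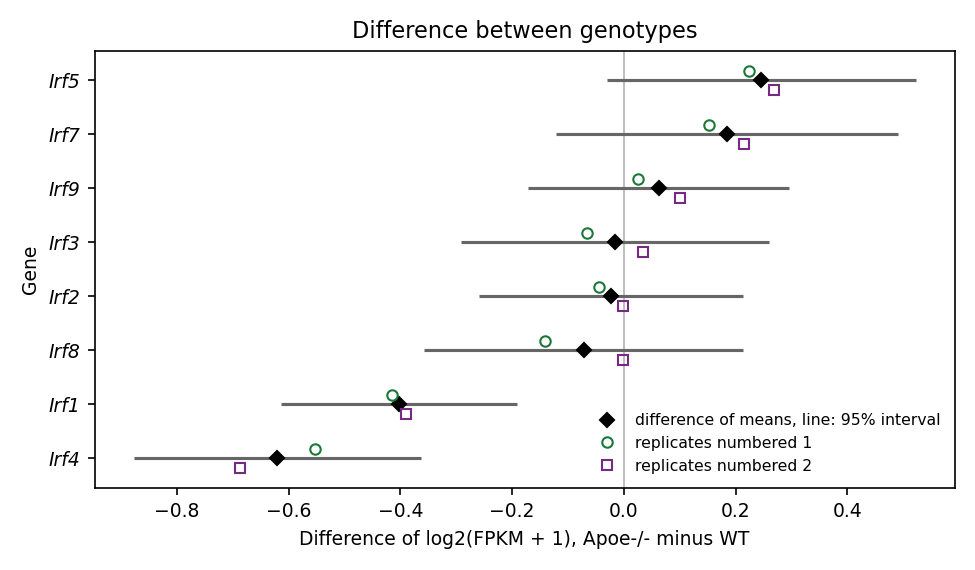
Difference of log2(FPKM + 1), Apoe-/- minus WT, for the 8 members; diamonds are differences of means with lines for limma's 95% intervals, circles the replicates numbered 1 and squares those numbered 2. Intervals of Irf4 (-0.88 to -0.36) and Irf1 (-0.61 to -0.19) lie below 0, although neither gene passed after adjustment, and those of the other 6 members include 0.

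Among the 8 transcripts, the summed level was 457 and 439 FPKM in WT and 407 and 400 FPKM in Apoe-/- libraries. Without Irf1 the remaining 7 summed to 284 and 264 FPKM in WT and to 277 and 267 FPKM in Apoe-/- libraries, which overlapped. Irf1 made up 37.8% and 39.9% of the sum in WT and 31.9% and 33.3% in Apoe-/- libraries. The share of Irf4 was 6.27% and 6.94% in WT and 4.73% and 4.64% in Apoe-/- libraries. Shares of Irf7 (8.92% to 9.96% in WT, 11.4% to 12.5% in Apoe-/-) and Irf9 (11.4% to 11.7% and 13.0% to 13.7%) were larger in Apoe-/- libraries, as they must be in part when the share of Irf1 is smaller.

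**Figure D3:**
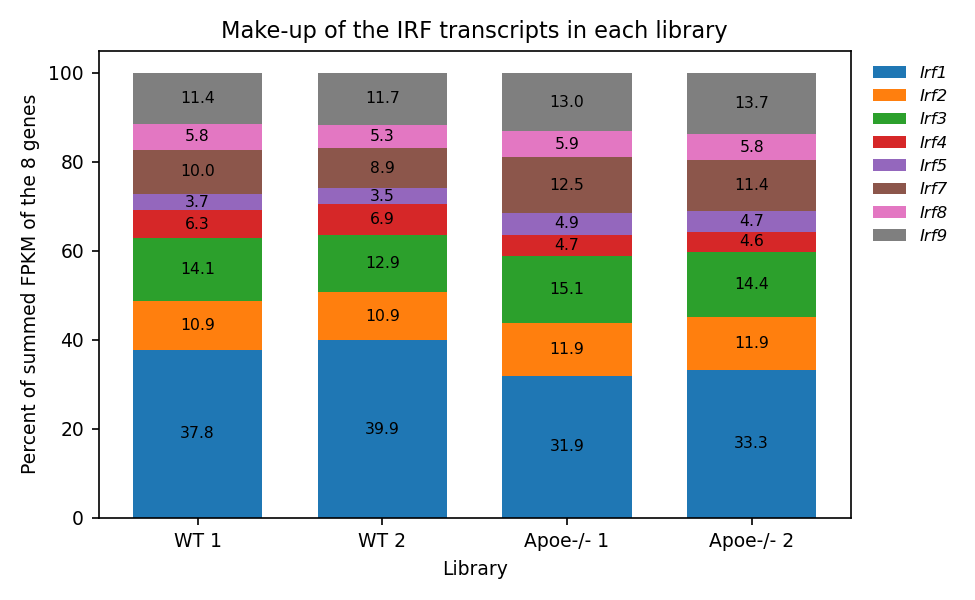
Share of each of the 8 members in their summed FPKM, one stacked bar per library, in percent. Irf1 takes 37.8% and 39.9% in the WT bars and 31.9% and 33.3% in the Apoe-/- bars, and Irf4 goes from 6.27% and 6.94% to 4.73% and 4.64%.

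IRF4 is read as a gauge of T cell receptor signaling, and 18 genes that respond to receptor strength were set beside it. Of these, 0 rose, 5 fell and 13 did not pass, and their median log2 difference was -0.28. At an unadjusted p under 0.05, 1 was higher and 8 were lower. Over all tested genes, 0.948% were called higher and 0.885% lower, and 11.6% and 8.27% were so at an unadjusted p under 0.05. Counts of every list below stand beside these shares. The nuclear receptor genes Nr4a3, Nr4a2 and Nr4a1 fell from 98.1 to 11.9, from 43.6 to 17.4 and from 222 to 109 FPKM (adjusted p = 0.00211, 0.0142 and 0.0496). Under 4 of the 11 alternatives, none of which left out a library, Nr4a1 did not pass (adjusted p = 0.0514 to 0.102). Rel, an NF-kB subunit that acts on the Irf4 gene in lymphocytes, was at 86.8 and 98.1 FPKM in WT and at 30.6 and 40.8 FPKM in Apoe-/- libraries and fell (log2 difference -1.36 ± 0.16, adjusted p = 0.0294), a call that ended with no FPKM filter (adjusted p = 0.0726, range over 11 alternatives 6.18e-06 to 0.0726). Nfkbid, an atypical NF-kB inhibitor protein, fell from 130 to 53.0 FPKM (adjusted p = 0.0185). The activation marker Cd69 was at 206 and 118 FPKM (adjusted p = 0.096), and Cd5 at 314 and 295 FPKM. Egr1 was at 134 and 160 FPKM, and Il2ra at 4.37 and 6.92 FPKM (adjusted p = 0.147). The genotypes did not overlap for 4 list genes higher in Apoe-/- libraries and 12 lower, against 27.5% and 22.9% of all tested genes. The list was thus not shifted throughout.

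Of 22 genes for binding partners of IRFs, 20 were tested, and 1 fell and none rose (median 0.17). At an unadjusted p under 0.05, 6 were higher and 3 lower, against 11.6% and 8.27% of all tested genes. The gene that fell was Fosl2, an AP-1 subunit, at 41.9 and 40.1 FPKM in WT and 6.13 and 5.43 FPKM in Apoe-/- libraries (log2 difference -2.63 ± 0.11, adjusted p = 0.00243). Batf, the main AP-1 partner of IRF4 in T cells, was at 137 and 126 FPKM in WT and 129 and 118 FPKM in Apoe-/- libraries, which overlapped (adjusted p = 0.648). Irf4 over Batf was 0.210 and 0.242 in WT and 0.1495 and 0.158 in Apoe-/- libraries. The Ets factors Spi1 and Spib, which pair with IRF4 and IRF8 in B and myeloid cells, had means of 7.53 FPKM in WT and 10.5 in Apoe-/- libraries (adjusted p = 0.352), and of 15.4 and 9.98 FPKM in turn (adjusted p = 0.0919). Stat2, the fixed partner of IRF9, was at 23.2 and 27.1 FPKM (adjusted p = 0.304).

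Genes linked to IRF4 in effector T cells had a median of 0.009 over 14 tested members, of which 1 fell and none rose. That gene was Il4, a Tfh and Th2 cytokine, at 32.4 and 38.9 FPKM in WT and 12.6 and 13.1 FPKM in Apoe-/- libraries (log2 difference -1.40 ± 0.13, adjusted p = 0.0148). Prdm1, which encodes BLIMP1 and is controlled by IRF4, was at 6.09 and 6.32 FPKM in WT and 6.03 and 6.44 FPKM in Apoe-/- libraries (adjusted p = 0.986, 95% interval of the log2 difference -0.27 to 0.28). The sign of the Prdm1 difference turned when libraries were rescaled or quantile normalized. At an unadjusted p under 0.05, 2 genes of this list were higher and 3, Il4, Pdcd1 and Ccr8, lower. The higher ones were Lag3, at 90.5 and 158 FPKM (adjusted p = 0.0697), and Il10, at 22.8 and 33.2 FPKM (adjusted p = 0.129).

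Of the interferon genes, which IRFs induce, only Ifng reached a mean of 1 FPKM among 21. It was at 83.7 and 92.6 FPKM in WT and at 127 and 138 FPKM in Apoe-/- libraries, all higher than in WT, with a log2 difference of 0.58 ± 0.10 (adjusted p = 0.0693). It passed without Apoe-/- replicate 1 (adjusted p = 0.0442, range over 11 alternatives 0.00144 to 0.193). Ifnb1 was listed at 0.0715 and 0.360 FPKM in WT and at 0 in both Apoe-/- libraries, and 13 of the 21 were at 0 in every library. Sensors, adaptors and kinases upstream of IRF3, IRF5 and IRF7 had 0 of 27 tested genes past the limma threshold (median 0.038). At an unadjusted p under 0.05, 3 were higher and 2 lower, against 11.6% and 8.27% of all tested genes. Tbk1 was at 38.7 and 42.6 FPKM, Mavs at 13.9 and 14.3 FPKM and Myd88 at 40.9 and 43.0 FPKM (adjusted p = 0.623, 0.896 and 0.717), and the sign of Mavs turned with rescaling. Tbkbp1, a TBK1 adaptor, was at 0.888 and 2.54 FPKM (adjusted p = 0.055), and passed the filter only through the Apoe-/- libraries. Traf3 was at 24.1 and 18.6 FPKM (adjusted p = 0.153).

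Interferon receptors and their kinases had 0 of 8 tested genes past the limma threshold (2 higher and 1 lower at an unadjusted p under 0.05, median -0.019). The subunits of one receptor did not go the same way: Ifngr1 was at 31.95 and 37.9 FPKM (adjusted p = 0.288) and Ifngr2, which limits interferon gamma signaling in T cells, at 14.9 and 9.97 FPKM (adjusted p = 0.102). Ifnar1 was at 29.2 and 26.6 FPKM (adjusted p = 0.555) and Ifnar2 at 49.2 and 63.0 FPKM (adjusted p = 0.155). Il10rb, a subunit of the interleukin-10 and interferon lambda receptors, was at 32.1 and 43.8 FPKM (log2 difference 0.44, adjusted p = 0.0966). Inhibitors of interferon signaling likewise had 0 of 8 past the limma threshold (1 higher and 1 lower at an unadjusted p under 0.05, median 0.038). Socs1, itself an IRF1 target, was at 57.1 and 39.6 FPKM in WT and 60.0 and 42.7 FPKM in Apoe-/- libraries, with replicates of a genotype further apart than the genotypes. Ptpn2, a phosphatase that acts on JAK and STAT proteins, was at 46.4 and 63.2 FPKM in WT and 33.4 and 49.2 FPKM in Apoe-/- libraries, which overlapped (log2 difference -0.41, adjusted p = 0.395). Tnfaip3, which encodes the NF-kB inhibitor A20, was at 572 and 442 FPKM (adjusted p = 0.0988).

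Genes that the family is known to control had values on both sides of 0. Of 31 tested type I interferon genes 1 fell and none rose (median 0.058; 4 higher and 2 lower at an unadjusted p under 0.05). Cxcl10, a chemokine induced by both interferon types and by NF-kB, was at 130 and 129 FPKM in WT and at 45.4 and 45.9 FPKM in Apoe-/- libraries and fell (log2 difference -1.48 ± 0.09, adjusted p = 0.00802). The ubiquitin-like Isg15 was at 42.9 and 29.6 FPKM (adjusted p = 0.0887). Higher in Apoe-/- libraries were Oasl2, at 4.88 and 8.41 FPKM (adjusted p = 0.0887), and the antiviral GTPase gene Mx1, at 15.3 and 20.3 FPKM (adjusted p = 0.226). Of the type I genes, 12 were higher without overlap of the genotypes and 5 lower, against 27.5% and 22.9% of all tested genes. Of 30 tested IRF1 and interferon gamma targets 0 passed the limma test (5 higher and 3 lower at an unadjusted p under 0.05, median 0.029). Over all tested genes, 11.6% were higher and 8.27% lower at that unadjusted threshold. Cd274, which encodes PD-L1 and is driven by IRF1, was at 43.4 and 47.1 FPKM in WT and 25.0 and 28.8 FPKM in Apoe-/- libraries (log2 difference -0.73 ± 0.12, adjusted p = 0.055). Il12rb1, a subunit of the interleukin-12 receptor, was at 12.5 and 9.91 FPKM in WT and 17.4 and 15.9 FPKM in Apoe-/- libraries (log2 difference 0.54, adjusted p = 0.131). Gbp2 was at 23.7 and 18.4 FPKM (adjusted p = 0.207). The antigen presentation genes Tap1, a peptide transporter, and Nlrc5, the activator of MHC class I genes, had means of 131 FPKM in WT and 165 in Apoe-/- libraries (adjusted p = 0.197), and of 70.6 and 84.3 FPKM in turn (adjusted p = 0.220). Other genes of this list went the other way. The genotypes did not overlap for 9 of its genes higher in Apoe-/- libraries and 8 lower, against 27.5% and 22.9% of all tested genes.

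**Figure D4:**
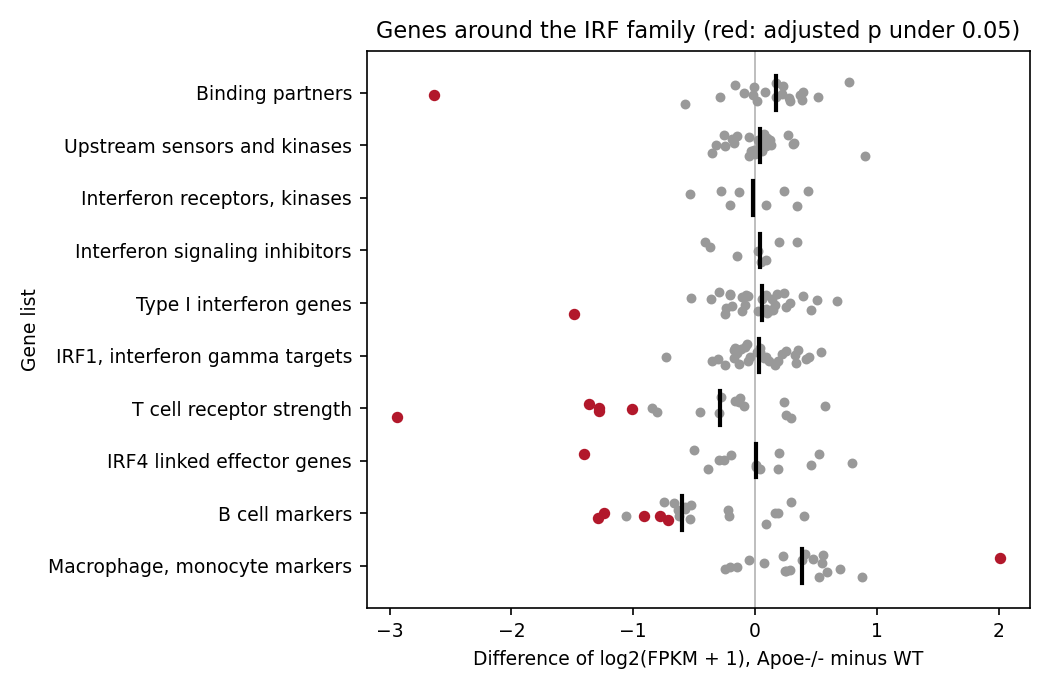
Difference of log2(FPKM + 1), Apoe-/- minus WT, for each tested gene of 10 lists around the family, with black bars for list medians and red points for genes with an adjusted p under 0.05. Medians of the partner, sensor, receptor, inhibitor and target lists lie between -0.019 and 0.17, those of T cell receptor strength genes and B cell markers at -0.28 and -0.60, and that of macrophage and monocyte markers at 0.38.

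Irf4, Irf5 and Irf8 are also expressed outside T cells, so the markers of those cells are given beside them. Of 22 B cell markers 5 fell and none rose (median -0.60). At an unadjusted p under 0.05, 15 were lower and 2, Cd72 and Pou2f2, higher, against 8.27% and 11.6% of all tested genes. Their summed level was 1793 to 1917 FPKM in WT and 1654 to 1708 FPKM in Apoe-/- libraries. Most of that sum came from Cd74 (741 and 638 FPKM), H2-Aa (292 and 334), H2-Ab1 (224 and 239) and H2-Eb1 (149 and 166), so it says little about the other markers. Fcer2a, a B cell Fc receptor gene, fell from 16.6 to 6.48 FPKM (adjusted p = 0.0148), and Cd22, Cr2 and Blnk also fell. With no FPKM filter the calls of Cd22, Cr2 and Blnk ended (adjusted p = 0.0641, 0.102 and 0.0715). At a mean of 5 FPKM or more the call of Cr2 ended too (adjusted p = 0.0565). Without WT replicate 1 the adjusted p of Cd22 was 0.0744, and without WT replicate 2 those of Cd22, Cr2 and Blnk were 0.109, 0.0669 and 0.1004. Cd79a was at 93.5 and 64.3 FPKM (adjusted p = 0.102) and Ms4a1 at 37.7 and 17.7 FPKM (adjusted p = 0.0732). Of 19 macrophage and monocyte markers 1 rose, Vsig4, and none fell (median 0.38, 10 higher and 0 lower at an unadjusted p under 0.05, summed level 281 to 313 FPKM in WT and 359 to 399 FPKM in Apoe-/- libraries). Vsig4 was at 0.148 and 0 FPKM in WT and at 2.25 and 4.72 FPKM in Apoe-/- libraries, so it passed the filter only through the Apoe-/- libraries. Its call ended with no FPKM filter (adjusted p = 0.0945). No B cell or macrophage marker was at 0 in all libraries. The part of these cells in the Irf4, Irf5 and Irf8 values was not tested.

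By the root mean square difference between centred log2(FPKM + 1) values over the 4 libraries, the tested genes most like Irf4 were Calr, a chaperone of the endoplasmic reticulum (0.017), Gga2, a trafficking adaptor (0.018), and Dynll1, a dynein light chain (0.027). Calr was at 315 and 334 FPKM in WT and at 210 and 209 FPKM in Apoe-/- libraries. Those most like Irf8 were Zgpat, Lrrc75a and Tmco6 (0.0091, 0.012 and 0.012). With 4 libraries such likeness describes these values only.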

How the data were processed

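The authors deposited FPKM per gene symbol and library. Per the submitters' processing notes CASAVA 1.8.2, TopHat2 2.0.13, Cuffdiff 2.2.0 and build mm10 were used; their roles and settings, the annotation and any filter are not stated there. FPKM tables carry no counts, so depth is unknown and no count model was run. FPKM totals ran from 522371 to 551289 over the 4 libraries. In 2 rows, Bcl6 and Cxcr5, a space replaces a tab, and rows were split on white space. Here the values were analysed with limma 3.58.1 in R 4.3.3 (lmFit and trended eBayes, two-sided) on log2(FPKM + 1), a scale that understates changes of low genes, with the threshold and filter given above; intervals are limma's at 95%. With 2 libraries a group, the smallest p of a permutation test is 0.333. The procedure was tested on simulated data. The members and the 16 lists (286 of 290 symbols found) were chosen with earlier results of these data known. Values are given for all members, list genes past the threshold, a fixed set of pathway genes, and, in lists with none, the 2 largest differences; some genes of this rule are not reported here. Lists were described by counts and medians, without set tests. Alternatives were another pseudocount (0.1), no filter, a mean of 5 FPKM, 2 scalings, no trend, the replicate number as a block, and each library left out. Positions and sequences are from RefSeq (GRCm38.p6, the assembly of mm10), matched by symbol for all 8 members.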

Additional observations from a re-analysis of the deposited data

How the results depend on the processing

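The counts of all genes called, 106 higher and 99 lower, were 35 and 41 with no FPKM filter, and 51 were higher at a mean of 5 FPKM or more (16584 and 8805 genes tested). They ranged from 59 to 347 higher and from 71 to 343 lower with 1 library left out. The counts of IRF members called, 0 and 0, were 0 higher and 1 lower (Irf4) with rescaling to one FPKM total, and 0 and 0 in each of the 4 fits that left out a library. In the fit blocked on replicate number, for which the labels state no pairing, 1908 genes were higher and 1776 lower, 17.1% and 15.9% of those tested, and the members called were 2 higher, Irf5 and Irf7 (adjusted p = 0.0295 and 0.0343), and 2 lower, Irf1 and Irf4 (adjusted p = 0.00273 and 0.00393). Deviations of equal-numbered libraries from their group means correlated at 0.214 across genes, and 2 pairs are too few to take the numbers as pairs. Of the members, Irf1, Irf4, Irf5, Irf7 and Irf9 kept their sign in all 11 alternatives. With 1 library left out, log2 differences ranged from -0.055 to 0.0088 for Irf2, -0.11 to 0.077 for Irf3, -0.16 to 0.021 for Irf8, -0.054 to 0.13 for Mavs, -0.035 to 0.047 for Prdm1 and -0.17 to 0.35 for Socs1. With quantile normalization Irf2 was at 0.0061, Irf3 at 0.028 and Prdm1 at -0.036, and with rescaling Mavs was at -0.0068 and Prdm1 at -0.036; the cause was not tested. Over the 65 named genes, 616 of 709 alternative values kept direction and side of the threshold, 33 lost a call, 45 gained one (28 of them with the block) and 15 turned sign.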

Other observations

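Markers of other cells that can express IRF genes also differed between the genotypes. All 4 tested neutrophil markers, S100a8, S100a9, Retnlg and Csf3r, rose, while 9 others were below a mean of 1 FPKM and not tested. Retnlg was at 0.124 and 0.297 FPKM in WT and at 3.67 and 4.80 FPKM in Apoe-/- libraries, so it passed the filter only through the latter. The summed level of the 13 markers found was 8.42 to 9.96 FPKM in WT and 52.5 to 69.2 FPKM in Apoe-/- libraries. Most of that sum came from S100a8 (2.53 and 25.1 FPKM) and S100a9 (3.81 and 24.8 FPKM), while Camp and Elane were at 0 throughout. Of 10 tested CD8 T and NK cell markers 2 rose, the granule genes Gzmk and Nkg7. The summed level of the 13 found was 70.1 to 70.3 FPKM in WT and 130 to 138 FPKM in Apoe-/- libraries. Most of that sum came from Gzmk (23.5 and 42.9 FPKM) and Nkg7 (22.2 and 53.7 FPKM), so it says little about the other markers. Of 12 tested dendritic cell markers Itgax rose and Ly6d and Ccr7, which lymphocytes also express, fell, while the list median was 0.42 and, at an unadjusted p under 0.05, 6 were higher and 2 lower. Their summed level, most of it from Ly6d and Ccr7, was 137 to 151 FPKM in WT and 101 to 109 FPKM in Apoe-/- libraries. Of 5 tested plasma cell markers Igj, the joining chain gene, rose from 8.80 and 11.6 to 26.4 and 28.0 FPKM, and 4 did not pass (list median -0.13). Xbp1, also a plasma cell gene, was at 56.7 and 40.4 FPKM (adjusted p = 0.102). Mzb1 was at 18.3 and 13.0 FPKM (adjusted p = 0.108), while Derl3 and Prdm1 overlapped between the genotypes. In this list 1 gene was higher without overlap and 2 were lower, against 27.5% and 22.9% of all tested genes. The call of Ccr7 ended at a mean of 5 FPKM or more, with quantile normalization and with no trend (adjusted p = 0.054, 0.0536 and 0.0512). With no FPKM filter the calls of Csf3r, Gzmk, Itgax, Ly6d, Ccr7 and Igj ended (adjusted p = 0.0858, 0.0726, 0.0672, 0.0735, 0.0865 and 0.0672). Without WT replicate 1 those of Gzmk, Ly6d and Ccr7 ended (0.0763, 0.0744 and 0.0815), and without WT replicate 2 those of Csf3r, Gzmk, Ly6d and Ccr7 (0.109, 0.0519, 0.0711 and 0.0585).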
